A study of Mus musculus with 4 samples.

Results

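The 10 genes described here encode the CITED transcriptional regulators (Cited1, Cited2, Cited4), the coactivators CBP and p300 (Crebbp, Ep300), the oxygen-regulated factors HIF-1α and HIF-2α with the prolyl hydroxylase PHD3 (Hif1a, Epas1, Egln3), and the AP-2 factors α and γ (Tfap2a, Tfap2c). They were taken by gene name from a table of 55267 entries, and each name matched an entry. The set was chosen by the TPM of Cited2 (an abundance scaled to transcript length and library size), which was known to be lower after BMP6 in these same libraries. The differences of the 10 genes between BMP6 and control are therefore given as a description, without a test.

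RNA-seq had been performed on cultured muscle stem cells (MuSCs), the cells that rebuild skeletal muscle fibres, from 9-week-old female mice of the genotype C57BL/6N(Tg(Pax7-EGFP)Tajb). In these mice the Pax7 gene, which marks MuSCs, drives a green fluorescent reporter, and cells positive for it were collected by FACS. All cells were grown at 3% O2 and then spent 6 h in serum-free medium with 200 ng/mL of a soluble BMP receptor, BMPR-1A-Fc, which captures BMPs in the medium. The BMP6 group received 100 ng/mL BMP6 for 1 h, and the control group received vehicle (4 mM HCl with 0.1% BSA) for 1 h. Each group held 2 biological replicates, whose numbers the labels give as batches, so each number joins a BMP6 and a control library. The labels do not say how many mice went into a replicate, and p-values below measure the spread between these 4 libraries only.

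CITED proteins do not bind DNA themselves. They bind through a conserved acidic region to the CH1 domain of CBP and p300, histone acetyltransferases that many transcription factors recruit. HIF-1α uses the same domain, and CITED2 competes with it for binding and is itself encoded by a HIF target gene, while CITED proteins also act as coactivators of AP-2 factors. When oxygen is available, prolyl hydroxylases such as PHD3 mark HIF-α subunits for degradation through the VHL ubiquitin ligase, and Egln3 is in turn a target of HIF.

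The 4 libraries were alike in size, with 108 to 112 reads as rebuilt from coverage in units of 1000000, 13002 to 13203 entries at a TPM of 1 or more, and 3.80% to 4.29% of TPM from mitochondrial genes. The BMP stimulus was visible in its known targets: the Id genes, inhibitors of basic helix-loop-helix factors, and the inhibitory Smads. In limma on log2(TPM + 1), 4 of the 5 targets examined were higher past an adjusted p of 0.1 (Id1, Id2, Id3 and Smad7), where 0.244% of the 13128 tested entries passed in either direction and 0.236% passed as higher, with log2 differences from 1.26 for Id2 (adjusted p = 0.0511) to 2.46 for Id3 (adjusted p = 0.0104). The remaining target, Smad6, had a log2 difference of 2.23 (adjusted p = 0.270). Markers of myogenic cells were abundant, with a summed TPM of 6701 to 7662. Most of this sum came from the differentiation gene Myog (4400 to 5472 TPM), while Pax7 had 8.29 to 11.7 TPM. The summed TPM of markers was 0.00878 to 0.298 for endothelium, 1.38 to 1.91 for immune cells and 0.386 to 0.601 for Schwann cells. It was 7.12 to 9.53 for pericytes and smooth muscle and 10.3 to 11.3 for keratinocytes. Nearly all of the last came from Krt10, with Krt5 listed at 0. Markers of fibroblasts summed to 291 to 406 TPM, carried by collagen genes that myogenic cells also express, while Pdgfra and Lum stayed below 1 TPM in every library and Dcn had 0.955 to 1.92 TPM.

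Promoter sequences are shown for the gene that differed most between BMP6 and control, Cited2, and for the gene that differed most between replicates, Egln3. Both are the 250 bases before the gene start from RefSeq (GRCm38.p6), written 5′ to 3′ on the strand of the gene. Capitals mark the core of the HIF response element, ACGTG or GCGTG on either strand, and the GC-rich word GGCGCC that SMAD proteins of the BMP pathway can bind.
Cited2, chr10:17722978-17723227, plus strand: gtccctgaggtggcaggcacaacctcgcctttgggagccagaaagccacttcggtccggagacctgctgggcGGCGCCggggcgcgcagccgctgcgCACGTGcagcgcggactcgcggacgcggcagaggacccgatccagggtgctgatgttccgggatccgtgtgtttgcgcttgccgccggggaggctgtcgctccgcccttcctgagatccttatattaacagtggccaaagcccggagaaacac
Egln3, chr12:54203875-54204124, minus strand: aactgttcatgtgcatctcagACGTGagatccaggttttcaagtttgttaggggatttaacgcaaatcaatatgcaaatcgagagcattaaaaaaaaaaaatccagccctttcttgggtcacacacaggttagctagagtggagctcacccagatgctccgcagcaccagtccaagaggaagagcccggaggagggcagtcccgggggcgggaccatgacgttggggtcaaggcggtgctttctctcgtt

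Each run was found once in GRCm39, the build of the deposited coordinates: that of Cited2 at chr10:17598726-17598975, ending 10 bases inside the gene as the files place it, and that of Egln3 at chr12:54250661-54250910, 14 bases before it. The Cited2 promoter was the richer in G and C, with 66.8% against 50.8% for Egln3. Its HIF core lies in the palindrome CACGTG, which reads as ACGTG on both strands and begins 153 and 152 bases before the gene start on the minus and the plus strand, and GGCGCC begins 178 bases before it. The only HIF core of the Egln3 promoter begins 229 bases before the start. RefSeq held 11 promoters for 8 of the 10 genes (Cited1 has 3 and Tfap2a has 2), and Epas1 and Tfap2c had no entry.

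HIF cores were found in 6 of the 11 promoters (those of Cited2, Cited4, Egln3 and Hif1a and a pair of Cited1 promoters), in 38.6% of 32851 mouse promoters of the same length, and in 38 of 50 promoters (76.0%) of known HIF target genes. GGCGCC was found in 4 of the 11, of Cited2, Crebbp, Ep300 and Cited1, and in 9.59% of all promoters. The AP-2 word GCCNNNGGC was found in 2 of the 11 (13.7% of all), of Crebbp and Cited1, where it partly overlaps GGCGCC in the Cited1 promoter. The CREB word TGACGTCA (1.55% of all) and the SMAD box GTCTGTCT or GTCTAGAC (1.71% of all) were in 0 of the 11, while the shorter CREB word TGACG, which the longer one contains, was in 2 (17.8% of all), of Egln3 and Cited1. All words were searched on both strands. A match describes letters in this window and is not evidence of binding.

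The genes covered a wide range of levels. In order of mean TPM, which is scaled by transcript length, Cited2 was followed by Cited1, Egln3, Hif1a, Crebbp, Ep300, Cited4, Epas1, Tfap2c and Tfap2a. Effects of library preparation on long transcripts were not checked, so the order between genes is approximate. Cited2 lay above Cited1 in every library, and the range of Cited1 (75.2 to 85.8 TPM) overlapped that of Egln3 (42.1 to 77.7 TPM), which overlapped that of Hif1a (55.3 to 61.1 TPM). Crebbp (6.74 to 8.84 TPM) and Ep300 (1.11 to 1.15 TPM) lay apart from these and from each other. Cited4 and Epas1 stayed below 1 TPM and overlapped, and Tfap2a and Tfap2c were at or near 0. Of the 10 genes, 6 averaged 1 TPM or more and entered the fits, and Cited4, Epas1, Tfap2a and Tfap2c did not.

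**Figure D1:**
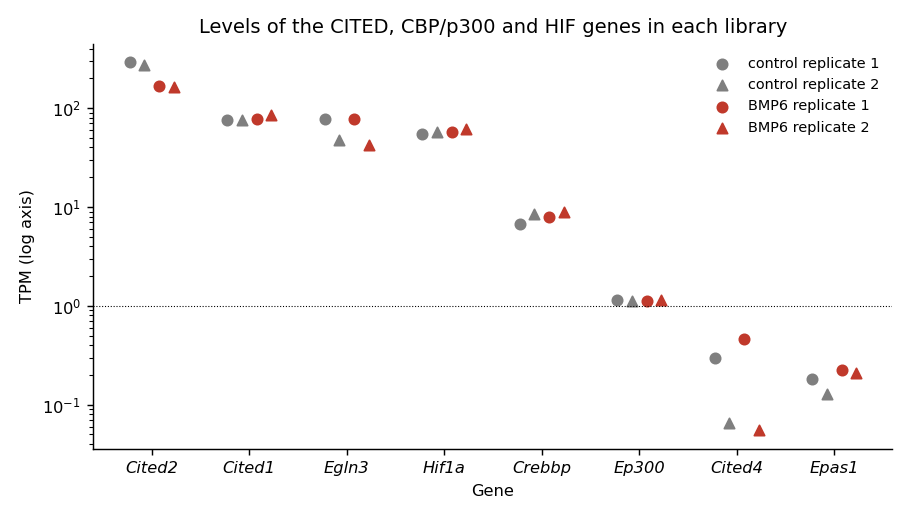
TPM on a log axis of the 8 genes with a value above 0 in every library; grey is control, red is BMP6, circles are replicate 1 and triangles replicate 2. Cited2 sits at 274 and 290 TPM in controls and at 165 and 166 TPM after BMP6, while Egln3 separates by replicate, at 77.6 and 77.7 TPM in replicate 1 and 42.1 and 48.1 TPM in replicate 2. The dotted line marks 1 TPM.

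Cited2 (chromosome 10, 17598966 to 17601422, GRCm39), needed for heart and left-right development and for the upkeep of blood stem cells, was the most abundant of the 10. Its TPM was 166 and 165 in BMP6 replicates 1 and 2 and 290 and 274 in control replicates 1 and 2. Both BMP6 libraries lay below both controls, which is the difference by which the set was chosen. The BMP6 libraries averaged 166 ± 0.733 TPM (SD, n = 2) against 282 ± 11.9 TPM for the controls (SD, n = 2), which is -0.76 on the log2(TPM + 1) scale. Within pairs, BMP6 libraries held 57.3% of the control TPM in replicate 1 and 60.4% in replicate 2, or -0.80 and -0.72 on the log2 scale. The values rest on 19984 to 37382 rebuilt reads per library.

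In bulk RNA, fewer cells that express a gene and less RNA per cell cannot be told apart, and this holds for Cited2 as for the other genes here. Among the 13128 tested entries, 13 had a lower log2 difference than Cited2, and 5 of these belonged to the 7278 entries whose TPM averaged 10 or more. These 5, named after their values were seen, were Dusp10, Osgin1 and the gene models Gm20721, Gm16439 and Gm37376.

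The difference of Cited2 is also given for its transcripts and exons. The TPM of the gene, by which the set was chosen, is the sum over its transcripts. A lower level in its main parts was therefore largely fixed by that choice and is no separate support. The gene has 2 exons, of 242 and 1737 bases, around an intron of 478 bases, and the files hold a spliced transcript and a transcript that keeps the intron. The spliced transcript had 150 and 153 TPM in BMP6 replicates 1 and 2 and 266 and 252 TPM in control replicates 1 and 2, which is 56.3% and 60.6% of the control within pairs. The unspliced transcript had 16.4 and 12.3 TPM after BMP6 and 24.1 and 21.0 TPM in controls, or 68.2% and 58.5% of the control.

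Neither transcript overlapped between the groups, and the spliced one carried 90.1% to 92.6% of the gene's TPM in every library. Within the spliced transcript, coverage scaled to the rebuilt reads of each library was 53.4% and 59.7% of the control over exon 1 and 56.3% and 59.5% over exon 2 in replicates 1 and 2. The split between the transcripts is an estimate of the assembler from overlapping reads. No annotated exon of another gene overlaps Cited2, and no near-identical copy of at least 100 bases was found.

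**Figure D2:**
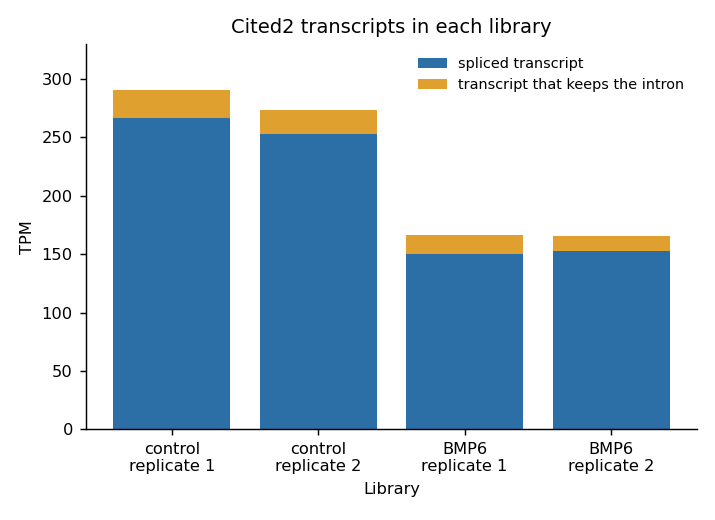
Cited2 TPM in each library as stacked bars, with the spliced transcript in blue and the transcript that keeps the intron in yellow. Blue bars reach 266 and 252 TPM in controls and 150 and 153 TPM after BMP6, and the yellow parts run from 12.3 to 24.1 TPM.

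Cited1 (X chromosome, 101290987 to 101295787), which encodes a CITED protein known from placenta and kidney progenitors, had 75.2 and 75.7 TPM in control replicates 1 and 2, against 77.6 and 85.8 TPM with BMP6. The groups did not overlap, but BMP6 replicate 1 lay close to the controls. The means were 81.7 ± 5.77 and 75.5 ± 0.373 TPM (SD, n = 2 each), the log2 difference was 0.11, and the pairs gave 0.05 and 0.18. Its transcripts went in opposite directions. The 901-base transcript had 64.2 and 71.9 TPM after BMP6 and 56.7 and 55.4 TPM in controls, and the 1271-base transcript had 13.5 and 13.8 TPM after BMP6 and 18.5 and 20.4 TPM in controls. The shorter transcript thus made up 82.7% and 83.9% of Cited1 after BMP6 and 75.4% and 73.1% in controls, again without overlap. This split, like those of Cited2 and Hif1a, is an estimate of the assembler from overlapping reads. How many transcripts of all genes differ without overlap was not counted, so the shift is a description only.

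Cited4 (chromosome 4, 120523769 to 120525017), a family member studied in mammary gland and heart, was listed at 0.462 and 0.0549 TPM after BMP6 and 0.299 and 0.0653 TPM in controls. It was higher in both libraries of replicate 1 than in both of replicate 2, and the treatment groups overlapped. These levels rest on 4.1 to 36.1 rebuilt reads, so differences of Cited4 could not be resolved at this depth.

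Crebbp (chromosome 16, 3899192 to 4031861), which encodes CBP, had 8.003 and 8.84 TPM after BMP6 and 6.74 and 8.41 TPM in controls. The log2 difference was 0.14, and the pairs gave 0.22 and 0.06. Ep300 (chromosome 15, 81469598 to 81536278), which encodes p300, had 1.12 and 1.15 TPM after BMP6 and 1.15 and 1.11 TPM in controls. Its log2 difference was 0.00, with -0.02 and 0.03 within pairs. The groups overlapped for both coactivators, and CBP mRNA was the more abundant in each library. The Ep300 entry also holds a short microRNA gene, which took at most 1.64% of its TPM.

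Hif1a (chromosome 12, 73948149 to 73994304), which encodes the oxygen-labile subunit of HIF-1, had 58.0 and 61.1 TPM after BMP6 and 55.3 and 57.4 TPM in controls. The BMP6 libraries were the higher ones by a narrow margin without overlap, with a log2 difference of 0.08 and 0.07 and 0.09 within pairs. The libraries were unstranded, and an antisense long non-coding gene, Gm15283, overlaps 695 exon bases of Hif1a and averaged 4.72 TPM, so some of these reads may belong to either gene.

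The 4385-base Hif1a transcript, which starts at an upstream exon, had 14.3 and 12.1 TPM after BMP6 and 13.6 and 2.30 TPM in controls. It made up 24.6%, 19.8% and 24.6% of Hif1a in BMP6 replicate 1, BMP6 replicate 2 and control replicate 1 and 4.01% in control replicate 2. That library stood apart, and the treatment groups overlapped. The main transcript of 4724 bases had 42.9 and 48.1 TPM after BMP6 and 40.7 and 54.3 TPM in controls.

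Epas1 (chromosome 17, 87061128 to 87140838), which encodes HIF-2α and is prominent in endothelium, was listed at 0.227 and 0.211 TPM after BMP6 and 0.184 and 0.129 TPM in controls. The BMP6 libraries were the higher ones without overlap, on 43.8 to 78.4 rebuilt reads. Egln3 (chromosome 12, 54225767 to 54250646) had 77.7 and 42.1 TPM after BMP6 and 77.6 and 48.1 TPM in controls. Here the replicates and not the treatments separated: both replicate 1 libraries were high, both replicate 2 libraries were low, and the treatment groups overlapped, with a log2 difference of -0.09 and 0.00 and -0.19 within pairs.

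The AP-2 genes were near absent. Tfap2a (chromosome 13, 40868778 to 40891852) was listed at 0 in all 4 libraries, and Tfap2c (chromosome 2, 172391513 to 172400542) was listed at 0.0573 TPM in control replicate 2 and at 0 in the others. The other AP-2 genes, Tfap2b, Tfap2d and Tfap2e, reached at most 0.0304 TPM.

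Counted over the genes that entered the fits, 1 of 6 (Cited2) was lower after BMP6 without overlap between the groups, where 11.6% of all tested entries were, and 2 of 6 (Cited1 and Hif1a) were higher without overlap, where 16.6% were. Cited2 had been known to be lower when the set was drawn. The median log2 difference was 0.04 over the 6 genes and 0.02 over all tested entries.

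**Figure D3:**
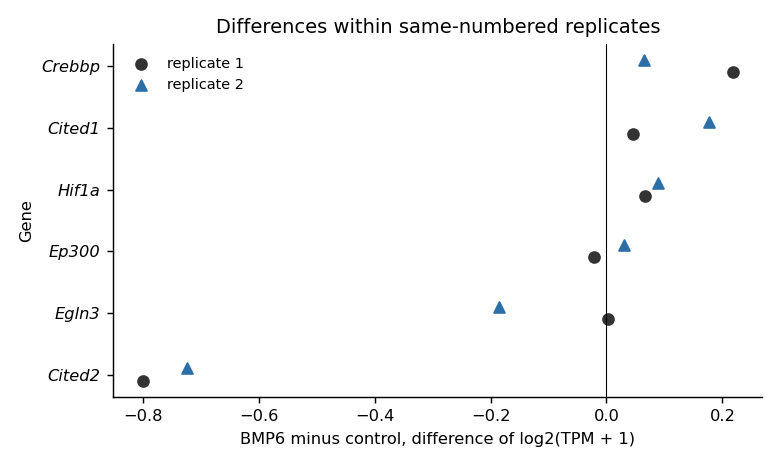
Difference of log2(TPM + 1) between the BMP6 and control library of the same replicate, for the 6 genes that averaged 1 TPM or more; circles are replicate 1 and triangles replicate 2. Cited2 lies at -0.80 and -0.72, and the other points lie between -0.19 and 0.22.

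The replicates could be compared by a test, since the difference between replicates 2 and 1 within treatments is a separate contrast from the difference between treatments that chose the genes. In limma with terms for treatment and replicate, Egln3 was lower in replicate 2 by a log2 difference of -0.77 (SE 0.08, 95% interval -0.95 to -0.60, adjusted p = 0.00085), with -0.68 between the controls and -0.87 between the BMP6 libraries. It was the only one of the 6 genes past the adjusted p, where 19.8% of the tested entries passed in either direction, 8.37% as lower and 11.4% as higher. The call was lost without BMP6 replicate 1, in a fit with the replicate term alone and 1 library left in replicate 1. Fewer of all tested entries passed in that fit, and the log2 difference of Egln3 there was again -0.77.

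Cited2 did not follow the replicates. Its replicate difference was -0.05 (SE 0.06, 95% interval -0.17 to 0.08, limma adjusted p = 0.606). The values were 0.08 for Cited1 (adjusted p = 0.497), 0.20 for Crebbp (adjusted p = 0.218), 0.06 for Hif1a (adjusted p = 0.571) and 0.00 in size for Ep300 (adjusted p = 1.00) in the same limma fit. Hif1a mRNA thus showed no replicate difference past the threshold while Egln3 did. The level of HIF-1α protein, which oxygen regulates, was not measured in these libraries.

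The other genes of the pathway were read from lists of textbook members. Of 40 HIF target genes, all of which were tested, 0 passed the adjusted p between BMP6 and control in limma. Over all tested entries 0.244% passed, so 0 in a list of this size is near that share. Of the 40, 19 were above and 21 below 0, and 2, Bhlhe40 among them, had an unadjusted p under 0.05. The share of all tested entries under that unadjusted p was not counted. The median log2 difference of the list was -0.01 against 0.02 over all tested entries. Its genes were split between both directions. Copies of the listed pathway genes elsewhere in the genome were not checked, so reads that abundant genes such as Aldoa share with them are uncertain. The entry named Epo spans 137481282 to 137531772 on chromosome 5 and may hold reads of other genes. Egln1 is counted both here and among the partners and regulators of HIF below.

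With the replicate number as a block, 2 HIF targets were higher past the adjusted p, where 1.64% of all tested entries passed. Vegfa, the angiogenic growth factor, had 11.3 and 5.81 TPM in BMP6 replicates 1 and 2 and 6.46 and 3.51 TPM in control replicates 1 and 2. The treatment groups overlapped, but BMP6 was the higher in each pair, with a log2 difference of 0.66 (0.72 and 0.60 within pairs), and limma gave an adjusted p of 1.00 without the block and 0.0228 with it. Bhlhe40, a transcriptional repressor of the circadian system, had 67.4 and 86.4 TPM after BMP6 and 51.7 and 60.8 TPM in controls, without overlap, a log2 difference of 0.44 with an adjusted p of 1.00 without the block and 0.0245 with it in limma. With voom on rebuilt reads and the block, the count was 3, since Slc16a3, a lactate exporter, was lower by a log2 difference of -0.22 (limma adjusted p = 0.0892).

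Between replicates the HIF targets did differ. In limma 25 of the 40 (62.5%) passed the adjusted p, against 19.8% of all tested entries, and 23 of these were lower in replicate 2 and 2 (Bhlhe40 and Gbe1) were higher. The median was -0.23, against 0.03 over all tested entries. Car9, the membrane carbonic anhydrase IX and a widely used marker of hypoxia, had 238 and 105 TPM in BMP6 replicates 1 and 2 and 256 and 119 TPM in control replicates 1 and 2. Both replicate 1 libraries were high and both replicate 2 libraries were low, as for Egln3, and the log2 difference was -1.13 (SE 0.06, limma adjusted p = 3.3e-05).

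Ndrg1, a gene induced by stress and hypoxia, had 134 and 60.8 TPM after BMP6 and 136 and 62.9 TPM in controls, with a log2 difference of -1.11 between replicates (SE 0.06, limma adjusted p = 5.6e-05). Slc2a1, the glucose transporter GLUT1, had 161 and 98.9 TPM after BMP6 and 172 and 105 TPM in controls, with a log2 difference of -0.71 (SE 0.06, limma adjusted p = 0.000376). Both separated by replicate without overlap. For the 3 most abundant HIF targets, all enzymes of glycolysis, the log2 difference between replicates was -0.17 for Aldoa (adjusted p = 0.0155), -0.25 for Ldha (adjusted p = 0.00306) and -0.07 for Eno1 (adjusted p = 0.194) in limma, at a mean of 6102 TPM for Aldoa and 6569 TPM for Ldha.

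Other groups of genes were also called between replicates. In the same limma fit, where 8.37% of all tested entries passed as lower and 11.4% as higher, 5 of 8 markers of myogenic cells were lower and 1, Myog, was higher in replicate 2, and 3 of 4 tested fibroblast markers, all collagens, were lower there, with a summed fibroblast TPM of 406 and 403 in replicate 1 and 291 and 330 in replicate 2. The part of these differences in those of Egln3 and the HIF targets was not tested. Batch and biological differences between the replicates cannot be told apart. The count of 25 HIF targets also moved with the libraries used. It was lower in each fit that left out a library, and so was the number of calls over all tested entries. Such a fit holds the replicate term alone and leaves 1 library in a replicate, so its counts are not given.

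**Figure D4:**
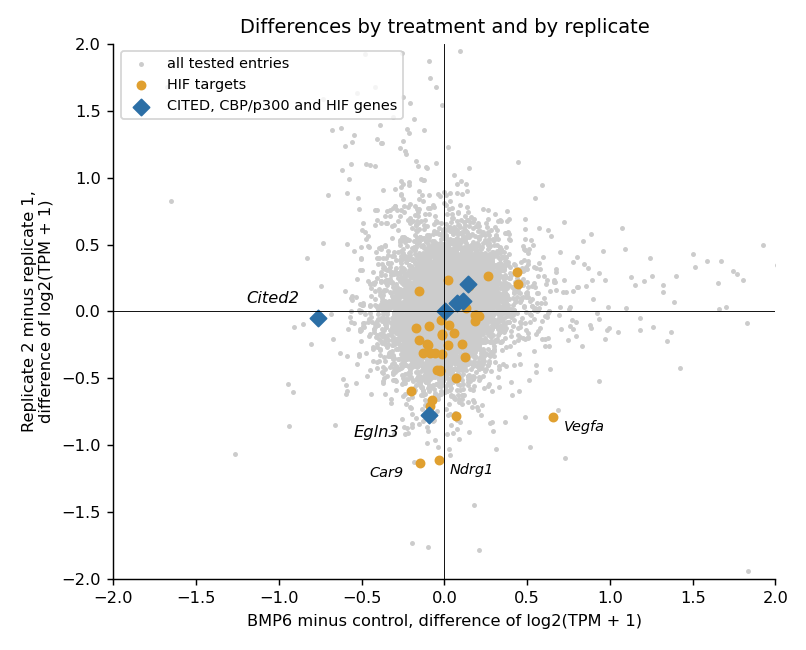
Each point is a tested entry, placed by its BMP6 minus control difference (horizontal) and its replicate 2 minus replicate 1 difference (vertical) of log2(TPM + 1); 20 of 13128 entries fall outside the axes. Cited2 lies at -0.76 and -0.05, and Egln3 at -0.09 and -0.77; the HIF targets, in yellow, have a median replicate difference of -0.23.

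**Figure D5:**
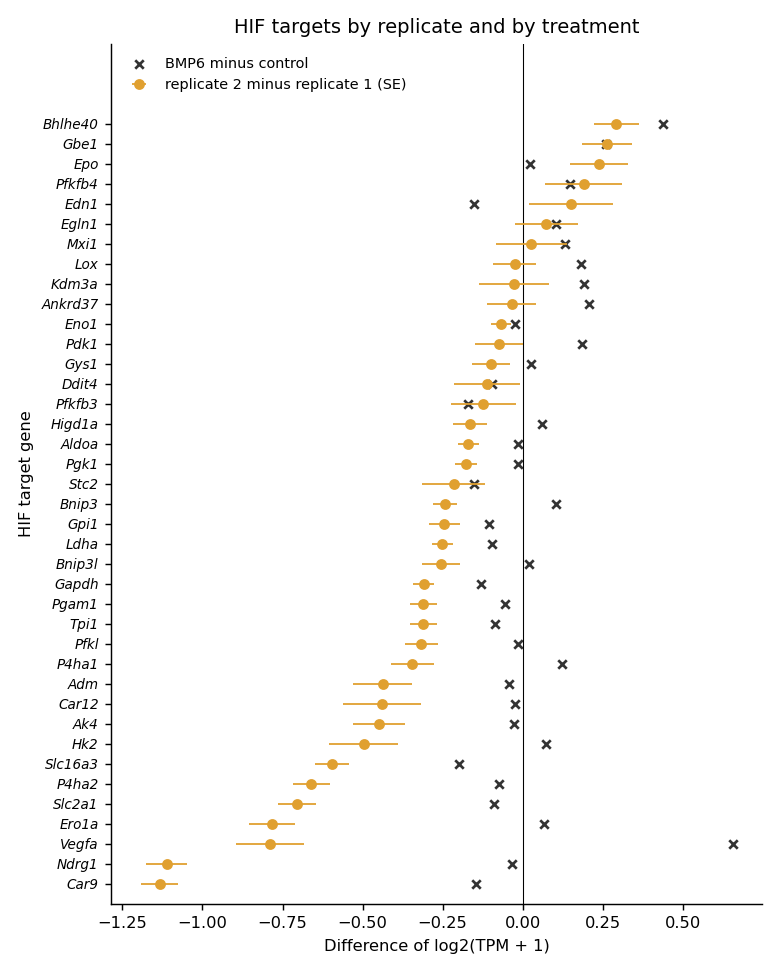
Differences of log2(TPM + 1) for 39 of the 40 HIF targets, ordered by the replicate 2 minus replicate 1 difference (yellow, with its limma SE); crosses are BMP6 minus control. Replicate differences run from -1.13 for Car9 to 0.29 for Bhlhe40, and treatment differences from -0.20 for Slc16a3 to 0.66 for Vegfa.

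The partners and regulators of HIF held 14 genes, of which 13 were tested. None passed the adjusted p between BMP6 and control in limma, near the 0.244% of all tested entries that did. Of the 13, 10 were above and 3 below 0, and 0 had an unadjusted p under 0.05. The median was 0.05. The largest differences were 0.24 for Cul2, the scaffold of the VHL ligase (61.4 and 54.7 TPM in control replicates 2 and 1 and 76.9 and 60.9 TPM in BMP6 replicates 2 and 1), -0.19 for Siah1a, a ligase that degrades PHD3, and -0.16 for Egln2, the prolyl hydroxylase PHD1, and the VHL subunits Elob, Eloc and Rbx1 lay between 0.05 and 0.08. All 6 had an adjusted p of 1.00. Between replicates, Siah1a (0.68, adjusted p = 0.00286) and Cul2 (0.25, adjusted p = 0.0638) were higher and Os9 (-0.32, adjusted p = 0.0225) was lower in replicate 2 in limma, 3 of the 13 (23.1%), near the 19.8% of all tested entries that passed.

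Other factors that bind CBP/p300, with further coactivators, held 19 genes, of which 18 were tested. Between BMP6 and control, 0 passed the adjusted p in limma, near the 0.244% of all tested entries that did. Of the 18, 0 had an unadjusted p under 0.05, with 8 above and 10 below 0 and a median of -0.00. Values were 0.13 for Myod1, the myogenic master regulator that p300 acetylates, -0.06 for Mef2c, its partner in muscle gene activation, -0.09 for Trp53, -0.18 for Carm1, an arginine methyltransferase that works with p300, and 0.15 for Ncoa1, a steroid receptor coactivator. Between replicates 4 of 18 passed (22.2%, near the 19.8% of all tested entries): Carm1 (0.72, adjusted p = 0.00824), Atf1 and Ncoa1 were higher and Rela was lower in replicate 2 in limma.

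Of 12 genes linked to CITED2 in other tissues, 3 averaged 1 TPM or more and were tested. Bmi1, a Polycomb gene reported downstream of CITED2 in blood stem cells, had a BMP6 minus control log2 difference of 0.16 with an adjusted p of 1.00 in limma. Isl1, a LIM-homeobox gene, had 1.87 and 1.44 TPM after BMP6 and 0.793 and 0.904 TPM in controls, a log2 difference of 0.52 without overlap (unadjusted p = 0.0187, adjusted p = 1.00 in limma). Bmi1 was higher in replicate 2 by 0.57 (adjusted p = 0.00715), the only one of the 3 past the adjusted p between replicates.

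The tested genes whose pattern over the 4 libraries was most like that of Cited2 were named by the root mean square distance between their centred log2(TPM + 1) values. The distance was 0.0675 for Il12a, a subunit of interleukin-12, 0.110 for Dusp10, a phosphatase of p38 and JNK kinases, 0.123 for Tnfaip3, an inhibitor of NF-κB signalling, 0.133 for the zinc finger gene Zfp385c and 0.134 for Chmp1b of the ESCRT-III complex. Dusp10 had 24.0 and 19.4 TPM in BMP6 replicates 1 and 2 and 41.3 and 35.9 TPM in controls, and Chmp1b had 25.1 and 27.0 against 40.2 and 48.8 TPM. Il12a, at 1.75 and 1.49 against 3.81 and 3.65 TPM, Tnfaip3, at 0.580 and 0.731 against 1.40 and 1.47 TPM, and Zfp385c, at 0.901 and 0.875 against 1.65 and 1.74 TPM, were far less abundant than Cited2. The log2(TPM + 1) scale understates changes of low genes, so the nearness of Il12a, Tnfaip3 and Zfp385c to Cited2 depends on this scale. All 5 were lower in both BMP6 libraries than in both controls, which their choice by likeness to Cited2 fixed, and they are described without a test.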

How the data were processed

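RNA had been converted to unstranded libraries by Smart-seq2 with Nextera XT tagmentation. Per the study's methods and the submitters' processing notes, the authors aligned reads to GRCm39 with STAR 2.7.11a, used SAMtools 1.17, and assembled and quantified transcripts with StringTie 2.2.1 against a merged annotation. The authors deposited TPM per gene, summing to 1000000 per library, and FPKM, a constant multiple of TPM within a library that was read only as a check. Deposited coverage is a signal of mean read depth per transcript. It was multiplied by length and divided by a read length of 100 bases to rebuild reads, which count no molecules and carry no molecular identifiers. No counts were used.

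The 10 genes and the lists were chosen with earlier results of these data known. Differences are of log2(TPM + 1), which understates changes of low genes. Tests were two-sided limma 3.58.1 fits (R 4.3.3, eBayes with trend) over the 13128 entries that averaged 1 TPM or more, with Benjamini-Hochberg adjustment and a threshold of 0.1. They were first tested on simulated data. The treatment fit had no block: the study's methods name a paired design for heatmaps but none for differential expression. The replicate fit had a treatment term and left 1 residual degree of freedom per entry. Within a pathway list, genes were named when past the adjusted p for BMP6, among the 3 largest absolute differences or among the 3 highest mean TPM. For the replicate contrast the 3 HIF targets with the smallest p were named, and 5 entries were named for likeness to Cited2, leaving out, as the study did, 2483 tested entries by their name (such as Gm models). Other genes named from the replicate contrast, and Slc16a3, were chosen after their values were seen. Some genes that this rule names are not reported here.

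The labels call replicate numbers batches, so same-numbered libraries are paired. Across genes, the departures of same-numbered libraries from their groups' means correlated at 0.563, and principal component 1 (54.3% of variance) separated the replicates and component 2 (31.7%) the treatments. Overlaps and copies were checked against GENCODE on GRCm39 with BLAST+ 2.17.0 (at least 100 bases at 95% identity). Alternatives were other pseudocounts, filters, scalings, voom on rebuilt reads, the replicate block and leaving out each library.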

Additional observations from a re-analysis of the deposited data

How the results depend on the processing

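With 2 libraries per group, the spread within a group is poorly known. The log2 difference of Cited2 was -0.76 and lay between -0.80 and -0.72 in all 13 alternatives, and no result changed direction past its threshold. For Cited2 this range is a description. The filters, and the replicate block on log2(TPM + 1), leave its difference of group means unchanged by construction. Leaving out a library only recombines the values by which Cited2 was chosen. Other untested BMP6 minus control differences moved more with the libraries used. Leaving out 1 library gave -0.53 to 0.34 for Egln3, whose sign turned with the replicate left out, 0.00 to 0.28 for Crebbp, 0.04 to 0.18 for Cited1 and 0.04 to 0.12 for Hif1a. Vegfa, from 0.23 to 1.08, did not pass the adjusted p in any of these 4 fits. With the replicate block, which uses the pairing, 2 HIF targets passed the adjusted p for BMP6 in place of 0, and 3 did with voom and the block; the block changed no other call of the pathway lists but that of Smad6, with 5 of 5 BMP targets past in place of 4. The BMP targets past the adjusted p were 0 without a filter on low values and 2 at an adjusted p under 0.05.

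Without a filter on low values, 0 of the 55267 tested entries passed in the replicate contrast. None of the 10 genes or of the listed genes was therefore called in that fit. Without the trend the replicate contrast called 11 HIF targets and 1 coactivator, where 1293 of all 13128 tested entries passed. Without the treatment term it called 13 and 1, where 607 of all 13128 passed. At an adjusted p under 0.05 it called 2 coactivators. BMP targets went from 0 to 1 with a pseudocount of 5 and to 2 with voom, where 2702 and 2981 of all 13128 tested entries passed. Leaving out a library, which left the replicate term alone in the fit, gave 0 to 1 of the 10 genes (Egln3, lost without BMP6 replicate 1), 5 to 19 HIF targets, 0 to 4 HIF partners, 0 to 2 coactivators, 0 to 1 genes linked to CITED2 and 0 to 1 BMP targets. The cause of these moves was not tested, apart from the fewer samples that leaving out a library gives by construction.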
